A study of Mus musculus with 4 samples.

Results

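The transcripts of 9 well-studied mouse olfactory receptors were followed in the nasal mucosa of young adult and aged mice. These were *Olfr2*, *Olfr6*, *Olfr15*, *Olfr16*, *Olfr17*, *Olfr73*, *Olfr78*, *Olfr151* and *Olfr160*. The receptors were taken by gene symbol, and their probes were found through the RefSeq accession that the array gives for each probe. Of the 9 receptors, 8 had such a probe, 1 each, among 1080 *Olfr* genes and 45604 genes tested in all. *Olfr151* (M71), which the gene table lists as a transcribed pseudogene, had no probe that the table names and was not analysed here. RNA came from C57BL/6 mice described as male (strain label C57BL/6J), without treatment. The mice were 8 weeks of age in the young adult group and 16 months in the aged group. Each group had 2 arrays, and each array was hybridized with RNA pooled from 5 mice. The RNA came from the mucosa, in which neurons, supporting cells, glands and connective tissue lie together. In such tissue, a lower number of neurons that express a receptor and less receptor RNA per neuron cannot be told apart.

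An odorant receptor is a membrane protein of the cilia of olfactory receptor neurons (ORNs). Each mature ORN expresses a single receptor gene from a single allele, and each gene is used by a small and scattered set of neurons. An odorant that binds the receptor activates the G protein Golf and adenylyl cyclase, and the rise in cyclic AMP opens a cation channel. The receptors described here are laboratory models of this system. *Olfr2* encodes I7, which responds to octanal. *Olfr16* encodes MOR23, a receptor for lyral, and *Olfr73* encodes mOR-EG, a receptor for eugenol. *Olfr151* and *Olfr160* encode M71 and M72, related receptors that respond to acetophenone. *Olfr17* encodes P2, the receptor with which the convergence of axons onto glomeruli was traced in the olfactory bulb. *Olfr6* encodes M50, and *Olfr15* is listed under the synonyms OR3 and MOR256-17. *Olfr78* belongs to the class I receptors, responds to short-chain fatty acids, and is also expressed outside the nose, in vascular and renal cells and in the carotid body.

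The sequences before the start of 3 of these genes are shown to span the point estimates of the age difference, none of which passed the criteria given below: that of *Olfr16* was the largest of the 8 receptors measured, that of *Olfr73* the smallest, and that of *Olfr17* lay between them. Each run gives the 250 bases before the annotated start, 5′ to 3′ on the strand of the gene, from RefSeq (GRCm38.p6). Capitals mark matches on either strand to TAATNA, a core of homeodomain binding sites, the class of factor to which Lhx2 and Emx2 belong.
Olfr16 (chr1:172956518-172956767, plus strand): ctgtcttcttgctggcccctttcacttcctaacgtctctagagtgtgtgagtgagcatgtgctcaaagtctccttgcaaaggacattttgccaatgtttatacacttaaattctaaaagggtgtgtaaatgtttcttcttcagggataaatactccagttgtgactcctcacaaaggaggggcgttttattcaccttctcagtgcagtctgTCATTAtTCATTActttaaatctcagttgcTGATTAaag
Olfr17 (chr7:107097217-107097466, plus strand): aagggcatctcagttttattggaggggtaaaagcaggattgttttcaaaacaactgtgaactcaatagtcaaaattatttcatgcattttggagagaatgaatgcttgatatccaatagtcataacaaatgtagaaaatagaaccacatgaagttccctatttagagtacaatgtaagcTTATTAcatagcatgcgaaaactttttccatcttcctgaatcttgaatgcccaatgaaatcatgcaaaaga
Olfr73 (chr2:88035138-88035387, minus strand): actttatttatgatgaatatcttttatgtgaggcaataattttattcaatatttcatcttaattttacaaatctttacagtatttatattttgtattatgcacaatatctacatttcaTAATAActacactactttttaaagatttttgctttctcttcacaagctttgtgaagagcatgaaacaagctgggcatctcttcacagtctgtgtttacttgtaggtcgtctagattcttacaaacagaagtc

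The *Olfr16* run held 3 matches, beginning between 39 and 9 bases before the annotated start. The *Olfr17* and *Olfr73* runs held 1 match each, beginning 71 and 132 bases before it. Windows were given for 6 of the 9 receptors, and those of *Olfr6*, *Olfr16*, *Olfr17* and *Olfr73* held the core, while those of *Olfr15* and *Olfr160* did not. The core was in 24.3% of the 32851 windows of all genes and in 63.8% of the 948 windows of *Olfr* genes. The core CCCNNGGG of the O/E (Ebf) factors was in none of the 6 windows, and in 2.74% of the *Olfr* windows and 11.8% of all windows. In 4 of the 6 windows, all but those of *Olfr16* and *Olfr160*, the annotated start was the ATG, so that those runs lie before the coding sequence and need not hold the promoter. A match is a description of the letters and not of binding.

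All 10 mature ORN markers were above background on all 4 arrays. The same held for all 8 markers of sustentacular cells, the supporting cells of the epithelium. It also held for all 7 respiratory and ciliated and all 6 fibroblast markers, so detection does not single out the labelled tissue. The share of spots well above background ran from 63.1 to 76.8%, with a local background (median) of 67 and 63 on young adult array 1 and aged array 1, which shared a slide, against 32 and 39 on the others. One measurement went against the sample description: *Xist*, a transcript of the inactive X chromosome of females, was between 612 and 645 on the 4 arrays, while 7 probes of 4 Y-linked genes stayed at background throughout, although the mice were described as male. The study counts fewer mice than 2 separate pools of 5 would need, so the pools of an age may share animals, and the P values below measure only the spread between pools. An expression level is a quantile normalized intensity, and a difference is aged minus young adult on the log2 scale. Levels of different probes are not comparable with each other.

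None of the 8 receptors passed the criteria for a difference between ages (P below 0.05 and FDR below 0.25 by limma, 0 higher and 0 lower), whereas 3.98% of all genes tested did, 1.65% higher and 2.33% lower in aged mice. With P below 0.05 before adjustment, 1 receptor, *Olfr16*, was higher, as were 6.05% of all genes. Among all *Olfr* genes this share was 20.6%, and among those well above background on all 4 arrays it was 33.5%. The point estimate was above 0 for all 8 receptors, among them *Olfr2*, which was not well above background on any array. It was above 0 for 626 of the 1080 *Olfr* genes and 23474 of the 45604 genes tested. The median log2 difference of the 8 receptors was 0.22, against 0.11 for the 1080 *Olfr* genes and 0.01 for all genes. For *Olfr6*, *Olfr15*, *Olfr16* and *Olfr17*, both aged arrays lay above both young adult arrays, and no receptor showed the opposite. This separation, 4 of 8, was also found in 24.2% of all genes, in 35.4% of all *Olfr* genes and in 51.2% of the 424 *Olfr* genes that were well above background on all 4 arrays. The 6 receptors well above background on every array were *Olfr6*, *Olfr15*, *Olfr16*, *Olfr17*, *Olfr73* and *Olfr78*.

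**Figure D1:**
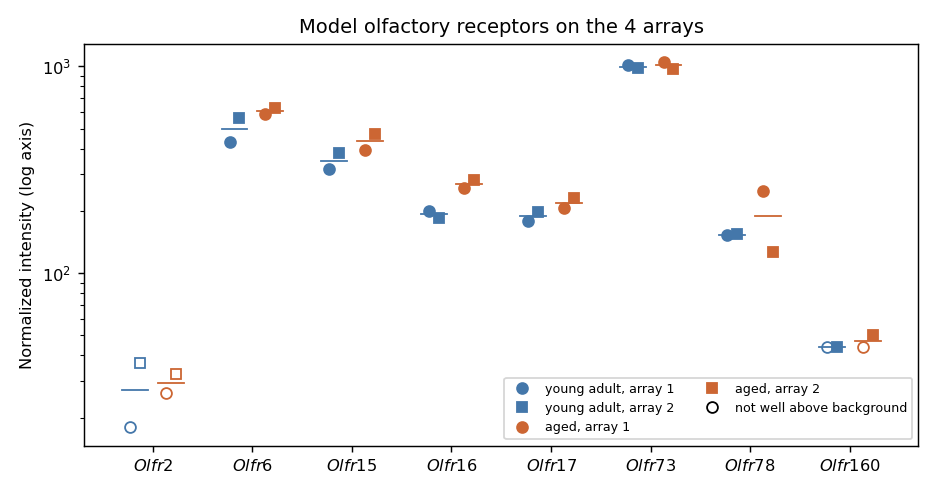
Normalized intensity (log axis) of the 8 receptors with a probe on the 2 young adult (blue) and 2 aged (orange) arrays; circles are array 1 and squares array 2 of an age, horizontal lines are means, and open symbols are spots not well above background. *Olfr16* separates by age (185 and 200 against 259 and 282), *Olfr78* splits between the 2 aged arrays (251 and 127), and *Olfr2* is open on all 4.

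*Olfr16*, the lyral receptor MOR23, was at 200 and 185 on the young adult arrays and at 259 and 282 on the aged arrays. Both aged pools were above both young adult pools, and the gap between ages was wider than the gap between the pools of either age. The mean was 192 ± 10.04 (SD, n = 2 pools) in young adult and 270 ± 15.9 in aged mice, a log2 difference of 0.49 (standard error 0.096, 95% interval 0.20 to 0.78), or 1.40-fold. By limma, P was 0.0108 and the FDR over all genes was 0.254, just outside the limit of 0.25. Fitted per probe over the 56605 probes of the array, the same values had an FDR of 0.244, just inside it. The log2 difference was 0.38 between the 2 arrays of the shared slide and 0.60 between the other pair. Of the 402 *Olfr* genes with a mean level of at least 100, 107 had a larger point estimate, and 82 passed the criteria as higher.

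**Figure D2:**
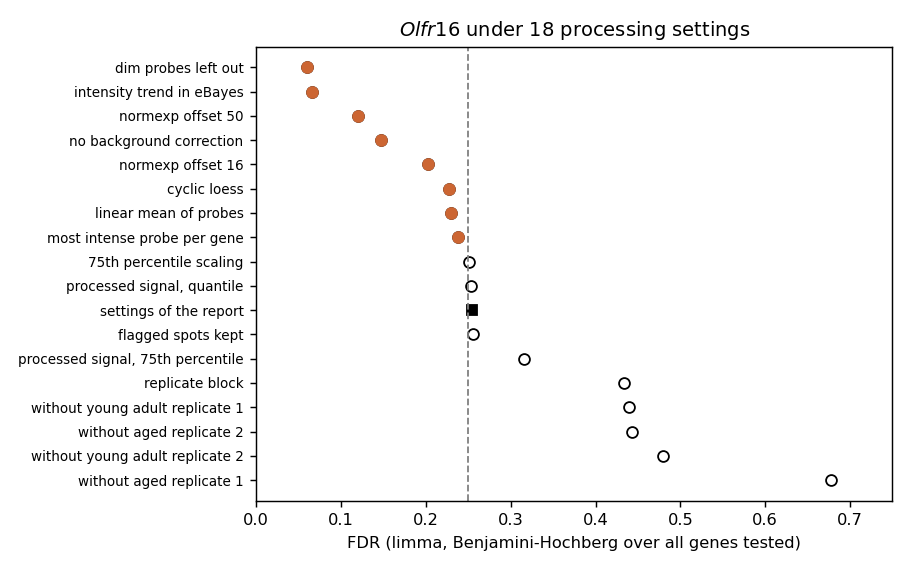
FDR of *Olfr16* by limma under the settings of the report (black square) and 17 other settings with a test; orange points lie below the limit of 0.25 (dashed line) and open points above it. The FDR runs from 0.0599 without dim probes to 0.677 without aged array 1, and 8 of the 17 other settings fall below the limit.

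*Olfr15* was at 318 and 380 on the young adult arrays and at 395 and 473 on the aged arrays. The ages did not overlap, but the lower aged pool was closer to the higher young adult pool than to the other aged pool. The mean was 349 ± 43.3 (SD, n = 2 pools) in young adult and 434 ± 54.9 in aged mice, a log2 difference of 0.31 (95% interval -0.16 to 0.79, FDR = 0.516 by limma). *Olfr6*, which encodes M50, was at 431 and 563 on the young adult arrays and at 585 and 626 on the aged arrays. Here the spread lay mainly in the young adult pools, of which array 1 was the lower. The log2 difference of *Olfr6* was 0.30 (95% interval -0.21 to 0.80, FDR = 0.557), with 0.44 on the shared slide and 0.15 between the other 2 arrays. *Olfr17*, the P2 receptor, was at 179 and 198 on the young adult arrays and at 206 and 232 on the aged arrays, a log2 difference of 0.22 (95% interval -0.12 to 0.56, FDR = 0.528). The ages did not overlap but lay close together, and the difference was nearly the same within the shared slide (0.20) and between the other arrays (0.23).

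*Olfr73*, the eugenol receptor, was at 1013 and 979 on the young adult arrays and at 1047 and 972 on the aged arrays. The ages overlapped, and the values of the aged pools enclosed those of the young adult pools. The mean was 996 ± 23.9 (SD, n = 2 pools) and 1010 ± 52.5, a log2 difference of 0.02 with a 95% interval of -0.24 to 0.28 (FDR = 0.942 by limma). This interval leaves out a change as large as the 0.49 estimated for *Olfr16*, while the interval of *Olfr16* overlaps it between 0.20 and 0.28. Whether the age differences of the receptors differ from each other was not tested.

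*Olfr78*, the class I receptor for short-chain fatty acids, was at 152 and 154 on the young adult arrays but at 251 and 127 on the aged arrays. The young adult pools were almost alike, and the aged pools lay on either side of them. The log2 difference between ages was 0.22 with a 95% interval of -0.93 to 1.37 (FDR = 0.837 by limma), so neither a rise nor a fall of 1.5-fold can be left out. Without aged array 1 the log2 difference was -0.28, and without aged array 2 it was 0.70. The aged pools differed by 0.98 on the log2 scale, or 1.98-fold, and only 2 of the 424 *Olfr* genes above background on all arrays, *Olfr78* included, had a gap between the aged arrays at least as large. The median gap of these genes was 0.12 between the aged arrays and 0.13 between the young adult arrays. The spot was not flagged as an outlier, and its median signal before any correction was 281 and 133.5 on the aged arrays, over a local background of 58 and 33. Because *Olfr78* is also expressed in vascular cells, marker lists were set beside it. Averaged over genes, none of 11 lists of cell type markers and pathway genes differed between the aged arrays by more than 0.13, and the vascular smooth muscle list differed by 0.04. Any part of these cells in the split was not tested.

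*Olfr160*, the acetophenone receptor M72, was at 43.7 and 44.1 on the young adult arrays and at 43.9 and 50.03 on the aged arrays. It was well above background on 1 of the 2 arrays of each age, in both cases an array with the lower local background. The log2 difference was 0.09 (95% interval -0.22 to 0.40, FDR = 0.744 by limma). With the processed signal quantile normalized, the log2 difference was 0.44, outside this interval. The *Olfr160* spot signals were 86.5 and 67 on the young adult arrays, over a local background of 68.5 and 34. On the aged arrays they were 88 and 71, over 67 and 43. So close to background, and with 2 arrays of each age, the interval does not bound the change. Neither a rise nor a fall, within it or larger, can be left out. *Olfr2*, the octanal receptor I7, was not well above background on any of the 4 arrays. Its spot signal was 61, 55.5, 61 and 52 on young adult arrays 1 and 2 and aged arrays 1 and 2, over a local background of 71, 30, 59 and 40. No fold change is given for *Olfr2*, because it was not well above background in either age, and no change is read from the values of its fit.

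**Figure D3:**
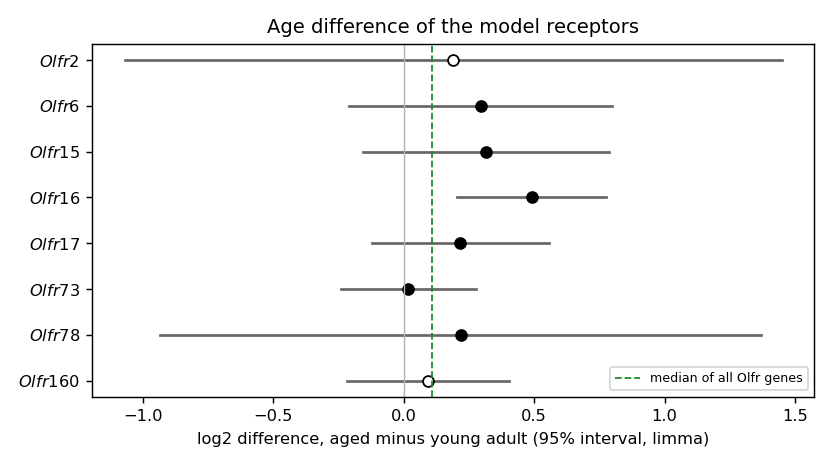
log2 difference between aged and young adult mice for the 8 receptors, with limma's 95% interval as a horizontal line; filled points were well above background on all 4 arrays, and the dashed line is the median of all *Olfr* genes (0.11). The interval of *Olfr16* (0.20 to 0.78) is the only interval that leaves out 0, and those of *Olfr2* and *Olfr78* are the widest.

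Among the 424 *Olfr* genes above background on every array, 88 passed the criteria as higher and 20 as lower in aged mice, and 269 had a point estimate above 0. Their median log2 difference was 0.17, and that of the 6 model receptors in this set was 0.26. Of these 6, 0 were called. The correlation of the 424 levels, which is across genes, was 0.978 between the young adult arrays and 0.980 between the aged arrays, but between 0.883 and 0.891 across ages. By pattern over the 4 arrays, the *Olfr* genes nearest to *Olfr16* were *Olfr1221* (root mean square difference 0.025 on the log2 scale, own log2 difference 0.51, FDR = 0.225 by limma) and *Olfr855* (0.026, own log2 difference 0.46). Those nearest to *Olfr17* were *Olfr1510* (0.018) and *Olfr983* (0.021), and those nearest to *Olfr6* were *Olfr806* (0.025) and *Olfr1251* (0.039). *Olfr15* was nearest to *Olfr1484* (0.058) and *Olfr140* (0.059), and *Olfr73* to *Olfr424* (0.039) and *Olfr1033* (0.039). The split of *Olfr78* had no close match: the nearest of the 423 other *Olfr* genes were *Olfr485* at 0.15 and *Olfr938* at 0.16.

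**Figure D4:**
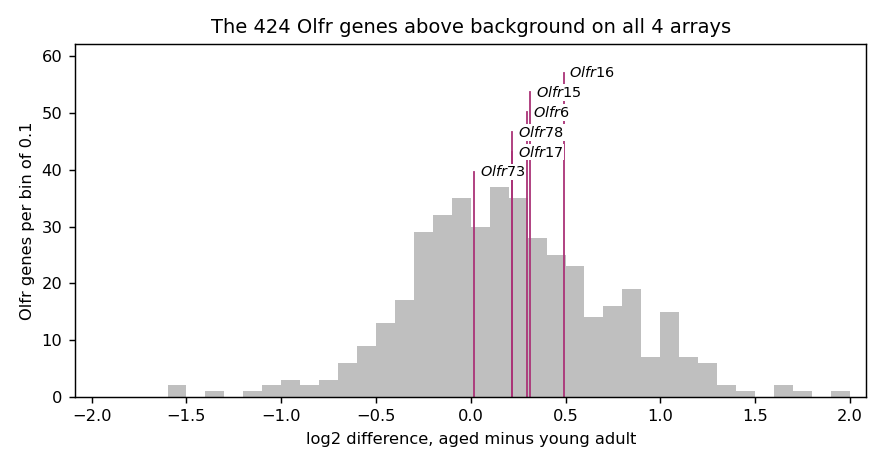
Number of *Olfr* genes in bins of 0.1 of the log2 difference between aged and young adult mice, for the 424 *Olfr* genes above background on all 4 arrays, with 6 model receptors marked by vertical lines. The model receptors lie between 0.02 (*Olfr73*) and 0.49 (*Olfr16*), inside the bulk of the family, whose median is 0.17.

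Receptor genes lie in clusters, and the 3 receptor genes on either side of each model receptor in gene order made a list of 40 further genes, of which 32 were measured. Of these, 3 passed the criteria as higher and 2 as lower, beside 118 and 40 of all 1080 *Olfr* genes. The median log2 difference of the 32 genes was 0.00. *Olfr6*, *Olfr2* and *Olfr17* stand in one such cluster on chromosome 7, each 3 receptor genes from the next. No measured gene of that stretch passed the criteria. Beside *Olfr78*, the class I gene *Olfr558*, which encodes another receptor for short-chain acids, fell from 244 ± 5.92 (SD, n = 2 pools) to 173 ± 5.20, a log2 difference of -0.49 (FDR = 0.222 by limma). The other 4 called genes (*Olfr39*, lower, and *Olfr12*, *Olfr164* and *Olfr165*, higher) lay over 1 Mb from the model receptor. *Olfr39* had a log2 difference of -1.52, *Olfr12* one of 0.74 and *Olfr165* one of 0.77. *Olfr164* was well above background on aged array 2 alone, so no size is given for its difference.

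Downstream of the receptors, 1 of 16 genes of odour signalling passed the criteria, beside 3.98% of all genes tested. *Pde4a*, a phosphodiesterase that degrades cyclic AMP, rose from 11012 ± 4.58 (SD, n = 2 pools) to 15089 ± 858, a log2 difference of 0.45 (FDR = 0.249 by limma). The list had a median log2 difference of 0.17, with 14 of 16 point estimates above 0, against 0.01 for all genes. *Adcy3*, the adenylyl cyclase of the cilia, was at 5022 and 5068 in young adult mice and at 6393 and 6222 in aged mice (log2 difference 0.32, FDR = 0.289). *Gnal*, which encodes the alpha subunit of Golf, had a log2 difference of 0.05 (FDR = 0.810), and *Cnga2*, a subunit of the cation channel, one of 0.08 (FDR = 0.726). *Omp*, the marker of mature ORNs, was at 300826 and 286061 in young adult mice and at 317836 and 332591 in aged mice, a log2 difference of 0.15 (FDR = 0.549). In all 4 of these genes both aged arrays lay above both young adult arrays, as in 24.2% of all genes. None of the 4 passed the criteria. For *Gnal*, the nearest arrays of the 2 ages were at 95610 and 96023, and for *Cnga2* at 15965 and 15989.

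**Figure D5:**
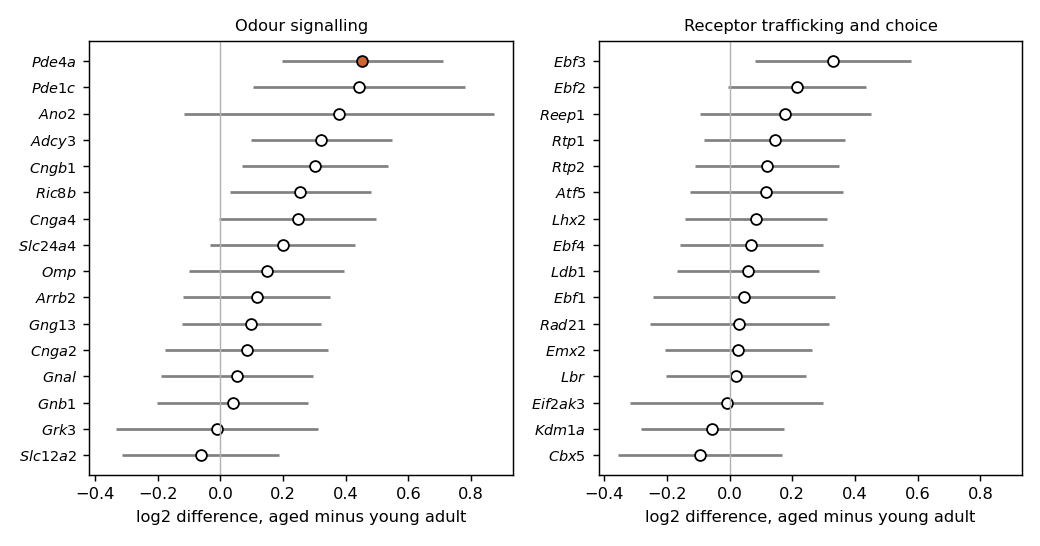
log2 difference between aged and young adult mice for 16 genes of odour signalling (left) and 16 genes of receptor trafficking and receptor choice (right), with limma's 95% interval as a horizontal line; the filled orange point passed the criteria. *Pde4a* (0.45) is the only called gene of the 32.

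Genes that carry receptors to the cell surface or take part in choosing 1 receptor per neuron showed no called difference (0 of 16 in either direction, with 1 gene at P below 0.05, median log2 difference 0.06). Among them were *Rtp1* (0.14) and *Rtp2* (0.12), chaperones of receptor transport, *Lhx2* (0.08), a homeodomain factor of receptor choice, and *Ebf3* (0.33, FDR = 0.306 by limma), a member of the O/E family. None of 5 genes that mark the dorsal or ventral zone of the epithelium was called (2 of 5 point estimates above 0, median log2 difference -0.03).

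Because mature ORNs express the receptors, markers of the cells of the tissue are given beside the receptors. The 10 mature ORN markers all had a point estimate above 0 (median log2 difference 0.24). Of these, 1 passed the criteria, beside 3.98% of all genes tested: *Stoml3*, a membrane protein of the cilia (0.43, FDR = 0.244 by limma). The markers *Omp*, *Cnga2*, *Cnga4*, *Adcy3*, *Gng13* and *Ano2* are also in the odour signalling list, and *Rtp1* in the trafficking list. These lists are therefore not separate measurements. Weighted towards bright probes such as *Omp*, the summed marker level was 660044 and 639338 in young adult and 765176 and 757407 in aged mice. Of 7 immature ORN markers, 0 were called and 6 had a point estimate below 0 (median -0.25), with *Gap43*, a growth cone protein, at -0.41 (FDR = 0.251). Of 7 basal and progenitor markers, 2 fell: *Krt5*, a basal cell keratin (-0.49, FDR = 0.216), and *Kit* (-0.60, FDR = 0.216). Of 8 sustentacular markers, 0 were called (median 0.02). In the respiratory and ciliated list, the mucin gene *Muc5b* was called higher (0.44, FDR = 0.245), 1 of 7 genes. Of 6 fibroblast markers, 4 fell, the collagen genes *Col1a1* at -1.98 (FDR = 0.168), *Col3a1* at -1.97 (FDR = 0.168) and *Col1a2* at -1.52 (FDR = 0.178), and *Lum*, a matrix proteoglycan, at -0.70 (FDR = 0.188). Of 4 vascular smooth muscle markers, 2 fell, *Myh11* at -0.64 (FDR = 0.208) and *Cnn1* at -0.52 (FDR = 0.226). None of 3 vomeronasal markers measured was called. The sum of the fibroblast markers, weighted towards bright probes such as *Col1a2* and *Dcn*, went from 248179 and 223497 to 124423 and 116395. With any 1 array left out, none of the calls in these lists was kept. The other 2 fibroblast markers, *Dcn* (-0.19, FDR = 0.628) and *Pdgfra* (-0.29, FDR = 0.433), were not called. The part of these marker differences in the receptor levels was not tested. By immunostaining of the septal epithelium in other mice, the study counted fewer OMP-positive and fewer GAP43-positive cells in aged mice. Cell counts and RNA levels of the mucosa are different measures, and their relation was not tested.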

How the data were processed

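Nasal mucosa RNA was hybridized to 4 one-colour Agilent arrays (2 for each age). The authors extracted the spots with Feature Extraction 11.0.1.1 and deposited, per array, the median intensity of each spot and of its local background, a processed intensity and quality flags, without normalization between arrays. Other flags and control types are deposited as integer codes. The deposited table of the whole series held the same processed intensity for all 62976 spots. Some label fields name an unrelated lung experiment and were not used.

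From these files, the median intensity was background corrected by normexp with an offset of 0, spots with outlier flags and controls were removed, spots of a probe were averaged, arrays were quantile normalized on the log2 scale, and probes were averaged within genes (limma 3.58.1, R 4.3.3). Probe accessions, unversioned, were matched to a RefSeq gene table (GRCm38.p6), which named 32994 of 56605 probes. Its coordinates were not used for the probes, whose design is on another build. Ages were compared with lmFit and eBayes without covariates over 45604 genes with a value on all arrays, and calls required P below 0.05 with the FDR (Benjamini-Hochberg) below 0.25, limits taken from the study's methods. For 1 gene, permuting 2 arrays against 2 gives an exact two-sided P of 0.333 at the least, and limma pools the spread across genes. The fit was run on simulated data with independent noise for each array, so slide effects and shared animals were not covered.

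The receptors, and the gene lists set beside them, were chosen with earlier results of these data known. All 8 measured receptors are named. From each list, called genes were named, at most 4, with *Omp*, *Gnal*, *Adcy3*, *Cnga2* and *Gap43* always; *Ebf3*, *Rtp1*, *Rtp2*, *Lhx2*, *Dcn*, *Pdgfra* and the fifth called neighbour were added after their values were seen. Patterns were compared as the root mean square difference of the 4 log2 values, each gene centred on its mean. Relatives by protein identity, planned at first, were not analysed here. The number of arrays limits the precision.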

Additional observations from a re-analysis of the deposited data

How the results depend on the processing

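The log2 difference of each receptor was recomputed under up to 18 alternatives. All values for *Olfr6*, *Olfr15*, *Olfr16*, *Olfr17* and *Olfr160* stayed above 0. With 1 array left out, the fitted value of *Olfr2*, not well above background on any array, ran from -0.33 (without young adult array 1) to 0.69, *Olfr78* from -0.28 (without aged array 1) to 0.70, and *Olfr73* from -0.034 (without aged array 1, and -0.0056 without young adult array 2) to 0.073. The number of receptors called higher was 1, always *Olfr16*, with a normexp offset of 16 or 50, no background correction, cyclic loess, dim probes left out, the most intense probe per gene, linear averaging of probes or an intensity trend in eBayes, and 0 under all other alternatives with a test, with any array left out (0 to 0) too. None was called lower under any. The FDR of *Olfr16* ran from 0.0599 to 0.677.

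Among all *Olfr* genes, 118 were called higher and 40 lower. These counts were 189 and 73 with an offset of 50, 179 and 72 without background correction, 193 and 72 with the processed signal quantile normalized, 178 and 105 without dim probes, 196 and 82 with the trend, and 73 and 20 with a mean of at least 100 and a fold of at least 1.5. They were 0 and 0 at an FDR below 0.05 by limma (223 were higher at an unadjusted P below 0.05) and 0 and 0 with any array left out, when the lone array of an age is assumed to vary like the others. With the replicate number as a block, they were 0 and 0, and the receptors called were 0. The labels do not say that numbers pair the pools, and the deviations of same-numbered arrays correlated at -0.078 across genes. Over all settings with a test, the odour signalling genes called higher numbered 0 to 8, the mature ORN markers called higher 0 to 7, the receptor trafficking and choice genes called higher 0 to 4, and the immature ORN markers called lower 0 to 4. Some genes are in several of these lists. The cause of the shifts in these counts was not tested. A slide correlation could not be estimated from 4 arrays, so slide was followed only within the shared slide, where the values of *Olfr16* and *Olfr78* were 0.38 and 0.72.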
